A study of Mus musculus with 4 samples.

Results

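The genes described here are 42 genes of the sarcomere and myofibril, chosen by symbol from a list of contractile, regulatory, scaffold and assembly genes, of 32285 genes in the count matrices. They were read in single-cell RNA sequencing libraries of C3H10T1/2 Clone 8 cells, a mouse mesenchymal progenitor line that can form muscle, fat, cartilage and bone cells. All 4 libraries came from cells that carried a lentiviral transgene for HA- and FLAG-tagged human histone H3.1 under the EF1 promoter beside their own H3, selected with puromycin: wild type in H3WT, and with arginine 26 changed to cysteine in H3R26C. Each was given DMSO, the solvent, or 5-azacytidine (5-Aza), a DNA methylation inhibitor that starts differentiation of these cells, at 3 µM for 24 h, with collection on day 28. The collection day of the DMSO cells was not given in the sources used here. There was 1 library per condition, so no difference between conditions was tested, and all intervals below are 95% intervals of counting error only. As models, both genotypes are overexpression in 1 cell line, and cells that passed a 70 µm strainer were loaded, a step that bears on large multinucleate cells.

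A sarcomere is the repeating contractile unit of striated muscle, in which thick filaments of myosin slide along thin filaments of actin. Troponin and tropomyosin on the thin filament make contraction depend on calcium, titin and nebulin span or measure the filaments, and proteins of the Z-disc and M-band hold them in register. Most of these proteins exist as embryonic, slow, fast and cardiac isoforms from separate genes, and developing skeletal muscle uses embryonic and cardiac isoforms before the adult ones.

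Promoter sequence was held for 32 of the 42 genes in the RefSeq table of GRCm38.p6, as 300 bases around each annotated start. The letters CAGCTG, an E-box of the kind bound by myogenic factors, were present in the promoters of 12 of these 32 genes (37.5%) and in 18.3% of 27025 genes with a promoter. The wider E-box CANNTG, which includes CAGCTG, was in 81.2% against 75%, and the TEAD-type letters CATTCC in 34.4% against 16.6%. Both strands were searched, and a match describes the letters only. The promoters shown are those of Mylpf and Tnni1, the genes higher in H3R26C in the largest kind of sarcomere-rich cells, Myl4, lower in H3R26C there, and Acta1, among the most abundant. They run 5′ to 3′ on the strand of the gene, with CAGCTG and CATTCC in capitals. They lie at chr7:127211358-127211657 (plus strand) for Mylpf, chr1:135799171-135799470 (plus) for Tnni1, chr8:123894726-123895025 (minus) for Acta1 and chr11:104550413-104550712 (plus) for Myl4.
Mylpf: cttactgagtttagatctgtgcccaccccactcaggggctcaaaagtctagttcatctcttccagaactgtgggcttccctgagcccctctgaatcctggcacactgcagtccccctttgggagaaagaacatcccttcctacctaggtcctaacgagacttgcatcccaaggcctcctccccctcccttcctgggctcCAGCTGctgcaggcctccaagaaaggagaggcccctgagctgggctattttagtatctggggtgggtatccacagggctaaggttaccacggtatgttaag
Tnni1: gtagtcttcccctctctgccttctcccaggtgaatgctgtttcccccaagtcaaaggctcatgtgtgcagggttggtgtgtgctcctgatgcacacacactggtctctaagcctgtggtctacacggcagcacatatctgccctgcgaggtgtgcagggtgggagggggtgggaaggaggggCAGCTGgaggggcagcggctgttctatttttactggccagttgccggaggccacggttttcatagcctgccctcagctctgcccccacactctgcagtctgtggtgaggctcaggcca
Acta1: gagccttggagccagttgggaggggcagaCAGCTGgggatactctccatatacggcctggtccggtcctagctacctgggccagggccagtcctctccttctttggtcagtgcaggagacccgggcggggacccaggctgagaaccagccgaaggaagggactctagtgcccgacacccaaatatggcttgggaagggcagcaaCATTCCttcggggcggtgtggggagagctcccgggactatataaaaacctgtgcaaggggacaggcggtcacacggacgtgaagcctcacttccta
Myl4: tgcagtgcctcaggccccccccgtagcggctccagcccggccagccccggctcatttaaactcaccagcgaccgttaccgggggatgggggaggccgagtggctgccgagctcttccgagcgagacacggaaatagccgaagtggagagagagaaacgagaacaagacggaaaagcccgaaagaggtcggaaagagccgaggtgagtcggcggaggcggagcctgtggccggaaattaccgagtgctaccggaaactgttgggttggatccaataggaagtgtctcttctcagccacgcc
Mylpf, Tnni1 and Acta1 each held 1 copy of the first motif, Acta1 also held the TEAD-type letters, and the Myl4 window held none of these motifs. CAGCTG was also in promoters of Myl1, Mybph, Mybpc1, Myh4 and Myoz2, which were lower in H3R26C in the same kind of cells. The promoters shown thus do not stand for how the motif and the genotype ratios go together.

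Of 39891 barcodes, 22049 passed the cell filter of at least 5000 unique molecular identifiers (UMIs, the tags by which RNA molecules are counted), at least 1500 genes and at most 20% mitochondrial UMIs. In H3WT these were 3710 cells with DMSO and 5993 with 5-Aza, and in H3R26C 4727 and 7619 cells, with 84060490 to 110712425 UMIs per library and medians of 13123 to 22420 UMIs per cell. Among all barcodes, 745 sequences occurred in more than 1 library, and 609 did so among those of which a copy was kept. The genes were near absent with DMSO. Their summed level over kept cells, as counts scaled to a common total of all UMIs (CPM), was 51.2 (49.8 to 52.8) in H3WT DMSO, 2903 (2892 to 2915) in H3WT 5-Aza, 43.0 (41.6 to 44.4) in H3R26C DMSO and 3238 (3227 to 3249) in H3R26C 5-Aza. Both 5-Aza libraries stood far above both DMSO libraries, and the DMSO sums came mostly from Tnni1, Tmod1 and Tnnt1, without which they were 12.5 and 13.3 CPM. All 42 genes had a UMI in each 5-Aza library, against 35 in H3WT DMSO and 30 in H3R26C DMSO. A gene was called where its ratio with 1 CPM added to each side passed 1.5-fold and it reached 10 CPM in either library, a rule of size and not a test. After 5-Aza in H3WT, 22 of 23 such sarcomere genes were higher, where 4.97% of 8764 genes were, with a median log2 ratio of 5.45 against 0.03 over all genes. In H3R26C 23 of 24 were higher, where 9.94% of 9066 genes were, with medians of 5.36 and -0.05. Tmod1, which caps the pointed end of thin filaments, was the exception in both. Only 2 sarcomere genes reached 10 CPM in H3WT DMSO and 1 in H3R26C DMSO. The rest entered through the 5-Aza library, where they were high, so these counts were nearly fixed in advance. The genes were also chosen with earlier results of these data known, and the counts are not read as support beyond the levels.

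The thick filament genes were led by light chains. Mylpf stood at 0.426 CPM in H3WT DMSO, 358 in H3WT 5-Aza, 0.464 in H3R26C DMSO and 609 in H3R26C 5-Aza. Myl1 stood at 0.0230 CPM in H3WT DMSO, 149 in H3WT 5-Aza, 0.0119 in H3R26C DMSO and 111 in H3R26C 5-Aza. Myl4 stood at 2.43 CPM in H3WT DMSO, 216 in H3WT 5-Aza, 1.53 in H3R26C DMSO and 94.2 in H3R26C 5-Aza. Mylpf is the fast regulatory light chain, Myl1 the fast alkali light chain and Myl4 the embryonic and atrial alkali light chain, and Myl4 was the only one of the 3 at over 1 CPM with DMSO. Myh3 stood at 0.0345 CPM in H3WT DMSO, 52.9 in H3WT 5-Aza, 0.0119 in H3R26C DMSO and 91.7 in H3R26C 5-Aza. Myh1 stood at 0.0115 CPM in H3WT DMSO, 30.9 in H3WT 5-Aza, 0 in H3R26C DMSO and 40.9 in H3R26C 5-Aza. Mybph stood at 0.0115 CPM in H3WT DMSO, 38.0 in H3WT 5-Aza, 0.0119 in H3R26C DMSO and 29.7 in H3R26C 5-Aza. Myh3 is the embryonic heavy chain, Myh1 the adult fast 2X heavy chain and Mybph a myosin-binding protein, and all 3 were at or under 0.0345 CPM with DMSO. The DMSO levels of these 3 genes and of Myl1 rest on at most 3 UMIs each. Heavy chain genes are near-identical over much of their length, so reads of Myh1, Myh2, Myh4 and Myh8 may have been divided among them.

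On the thin filament, skeletal actin was the most abundant gene of H3R26C 5-Aza and second in H3WT 5-Aza. Acta1 stood at 0.161 CPM in H3WT DMSO, 533 in H3WT 5-Aza, 0.0833 in H3R26C DMSO and 672 in H3R26C 5-Aza. Actc1, cardiac actin, had no UMI with DMSO, which allows up to 0.0345 and 0.0357 CPM, and stood at 41.6 CPM in H3WT 5-Aza and 40.0 in H3R26C 5-Aza, at least 1204-fold and 1122-fold higher. The coding sequences of both actins are close to identical, so some reads may have been assigned to either. Tnnc1 stood at 1.96 CPM in H3WT DMSO, 134 in H3WT 5-Aza, 2.58 in H3R26C DMSO and 146 in H3R26C 5-Aza. Tnnc2 stood at 0.138 CPM in H3WT DMSO, 113 in H3WT 5-Aza, 0.0119 (1 UMI) in H3R26C DMSO and 119.7 in H3R26C 5-Aza. Troponin C binds calcium, and the slow and cardiac form (Tnnc1) and the fast form (Tnnc2) reached like levels. Tnnt1 stood at 5.32 CPM in H3WT DMSO, 26.6 in H3WT 5-Aza, 5.97 in H3R26C DMSO and 26.1 in H3R26C 5-Aza. Tnnt2 stood at 0.426 CPM in H3WT DMSO, 61.5 in H3WT 5-Aza, 0.286 in H3R26C DMSO and 56.6 in H3R26C 5-Aza. Tnnt3 stood at 0.817 CPM in H3WT DMSO, 102 in H3WT 5-Aza, 1.13 in H3R26C DMSO and 123 in H3R26C 5-Aza. Troponin T holds the complex to tropomyosin, and its fast form Tnnt3 was ahead of the cardiac form Tnnt2 and the slow form Tnnt1. Tnni1 stood at 21.1 CPM in H3WT DMSO, 57.3 in H3WT 5-Aza, 14.4 in H3R26C DMSO and 90.7 in H3R26C 5-Aza. Tnni2 stood at 0.656 CPM in H3WT DMSO, 78.9 in H3WT 5-Aza, 0.845 in H3R26C DMSO and 90.2 in H3R26C 5-Aza. Troponin I blocks actin at rest. Its slow form Tnni1 was the member with the highest DMSO level, and its ratio of 5-Aza to DMSO was among the smallest, at 2.71 (2.57 to 2.86) in H3WT and 6.31 (5.95 to 6.71) in H3R26C. Tmod1 stood at 12.3 CPM in H3WT DMSO, 15.1 in H3WT 5-Aza, 9.41 in H3R26C DMSO and 14.5 in H3R26C 5-Aza. Lmod2, a leiomodin that lengthens thin filaments, had no UMI with DMSO and stood at 9.34 CPM in H3WT 5-Aza and 11.9 in H3R26C 5-Aza.

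Among giant, Z-disc and M-band genes, titin stood out. Ttn stood at 0.265 CPM in H3WT DMSO, 631 in H3WT 5-Aza, 0.0595 in H3R26C DMSO and 627 in H3R26C 5-Aza. Neb stood at 0.161 CPM in H3WT DMSO, 101 in H3WT 5-Aza, 0.167 in H3R26C DMSO and 73.6 in H3R26C 5-Aza. Ttn runs from Z-disc to M-band and Neb along the thin filament. Levels are UMIs per gene and were not divided by length. Actn3 stood at 0.357 CPM in H3WT DMSO, 13.3 in H3WT 5-Aza, 2.81 in H3R26C DMSO and 25.2 in H3R26C 5-Aza. Tcap stood at 0.138 CPM in H3WT DMSO, 10.9 in H3WT 5-Aza, 0.107 in H3R26C DMSO and 10.3 in H3R26C 5-Aza. Ldb3 stood at 1.05 CPM in H3WT DMSO, 11.6 in H3WT 5-Aza, 1.09 in H3R26C DMSO and 7.72 in H3R26C 5-Aza. Actn3 (fast alpha-actinin), Tcap and Ldb3 are Z-disc proteins. Myom2 stood at 0.437 CPM in H3WT DMSO, 20.8 in H3WT 5-Aza, 0.178 in H3R26C DMSO and 18.7 in H3R26C 5-Aza. Des stood at 0.645 CPM in H3WT DMSO, 31.2 in H3WT 5-Aza, 0.607 in H3R26C DMSO and 44.6 in H3R26C 5-Aza. Klhl41 stood at 0.0921 CPM in H3WT DMSO, 8.96 in H3WT 5-Aza, 0.0476 in H3R26C DMSO and 15.7 in H3R26C 5-Aza. Myom2 is an M-band protein, Des the muscle intermediate filament and Klhl41 an assembly factor. The other 17 genes stayed under 10 CPM in both 5-Aza libraries, from 0.237 to 8.94 CPM in H3WT and from 0.289 to 9.34 in H3R26C, against 0 to 1.24 and 0 to 0.630 CPM with DMSO. They were Myh2, Myh4, Myh7, Myh8, Actn2, Myom1, Myom3, Mybpc1, Mybpc2, Myoz1, Myoz2, Tmod4, Lmod3, Myot, Xirp1, Unc45b and Smyd1.

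**Figure D1:**
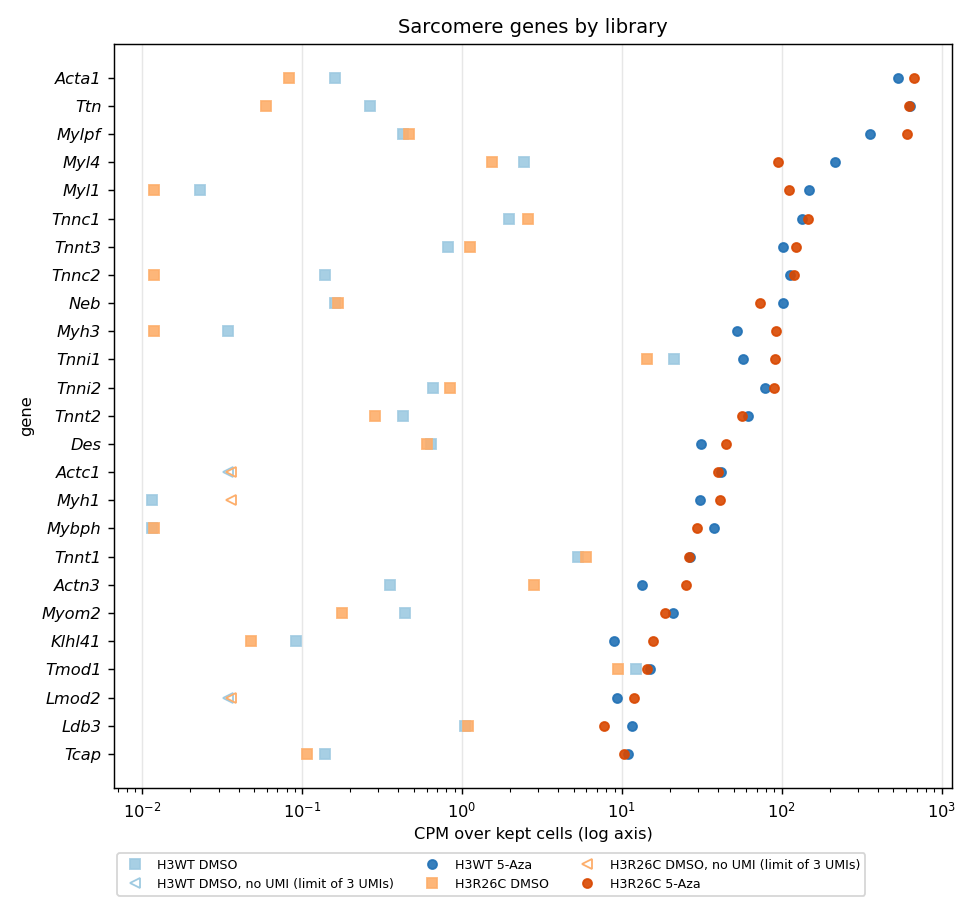
Level of each sarcomere gene with at least 10 CPM in a 5-Aza library (rows) in CPM over kept cells on a log axis, with squares for DMSO, circles for 5-Aza, and open triangles at the limit of 3 UMIs where no UMI was seen. All genes but Tmod1, Tnni1 and Tnnt1 lie well to the right with 5-Aza, and Myl4 is the gene for which the H3R26C circle falls farthest to the left of the H3WT circle.

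The RNA was not confined to cells that passed the filter. In H3WT 5-Aza the 9009 barcodes left out held 46.5% of the library's sarcomere UMIs and 9.78% of all its UMIs, at 23295 CPM. In H3R26C 5-Aza the 4491 left out held 28.7% and 5.97%, at 20545 CPM. With DMSO the barcodes left out stood at 71.9 and 40.6 CPM. A typical barcode of 500 to below 1000 UMIs held a median of 8 sarcomere UMIs in H3WT 5-Aza and 9 in H3R26C 5-Aza, about as many as a kept cell outside the sarcomere-rich group described next (7 in each), and 0 with DMSO. Cycling cells were assumed to lack these RNAs. They had at least 3 of 8 mitosis markers and numbered 384 in H3WT 5-Aza and 1149 in H3R26C 5-Aza. Their median was 2 per 5000 UMIs and the 95th percentile 10, against 0 and 1 with DMSO. The highest cycling cell held 132 in H3WT 5-Aza and 252 in H3R26C 5-Aza. In these libraries 3 and 2 cycling cells were in the sarcomere-rich group. Under the assumption about cycling cells, the level of a kept cell with few sarcomere UMIs was read as background. The source of these UMIs was not tested. The ratio of the summed level, H3R26C to H3WT after 5-Aza, was 1.12 (1.11 to 1.12) over kept cells and 0.872 with every barcode counted, so its direction turned with the cell filter. With DMSO the ratio was 0.839 (0.803 to 0.877).

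Sarcomere RNA was concentrated in few cells. To compare cells of unequal depth, each was thinned to 5000 UMIs, and a cell with at least 64 sarcomere UMIs, over the 95th percentile of cycling cells, was called sarcomere-rich. Cells were also binned by this sum, with a lower bin of 16 to 63 UMIs, an upper bin from 64 up to 4 times 64, and a top bin from there on. No DMSO cell was sarcomere-rich (at most 5 and 4 UMIs in any cell), which allows shares up to 0.0809% in H3WT and 0.0635% in H3R26C. After 5-Aza there were 165 of 5993 such cells in H3WT (2.75%, 2.35 to 3.20) and 218 of 7619 in H3R26C (2.86%, 2.50 to 3.26), a ratio of 1.04 (0.845 to 1.28), whose interval includes 1. They held 76.2% and 79.4% of the sarcomere UMIs of kept cells, and the highest cells reached 1349 and 1053. Near the limit, at 48 to 79 UMIs, lay 28 and 29 cells, of which 14 and 9 were counted as sarcomere-rich. The cells carried other skeletal muscle RNAs. Cells with at least 3 of 12 skeletal muscle markers made up 73.4% of H3WT cells of the upper bin and 100% of the top bin. In H3R26C these shares were 89.2% and 98.4%. Of 10 cardiac markers, Myl7, Nppa, Nppb, Nkx2-5 and Tbx5 were at 0 in sarcomere-rich cells of both libraries. The cardiac heavy chain Myh6 was at 14.4 and 9.65 CPM there, against 0.664 and 0.686 CPM over kept cells, cardiac troponin I (Tnni3) at 7.81 and 8.30, Gata4 at 7.81 and 2.92, Myl2 at 2.34 and 2.92 and Myl3 at 0.391 and 0.449, and no cell had 3 of the 10. Myh6 is near-identical to the slow heavy chain Myh7, so reads may have been divided between them. The smooth muscle actin Acta2 was at 3888 and 3528 CPM in the sarcomere-rich cells of H3WT and H3R26C, and the smooth muscle myosin Myh11 at 0 and 0.22 CPM. Cells with at least 3 of 6 smooth muscle markers made up 0% of the upper bin and 0% of the top bin in H3WT. In H3R26C these shares were 3.23% and 6.4%. Myog, a myogenic transcription factor, was detected in 0.653% of H3WT 5-Aza cells with no sarcomere UMI and in 86.1% of the top bin. In H3R26C 5-Aza these shares were 2.45% and 92.8%. Mymk, the fusion protein myomaker, went from 1.31% to 71.3% in H3WT and from 2.21% to 80% in H3R26C, Mef2c from 9.14% to 80.2% and from 15.8% to 79.2%, and Myod1 from 0.816% to 55.4% and from 1.84% to 58.4%. Cells with at least 3 mitosis markers went the other way, from 11.9% to 0% in H3WT and from 28% to 0% in H3R26C.

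**Figure D2:**
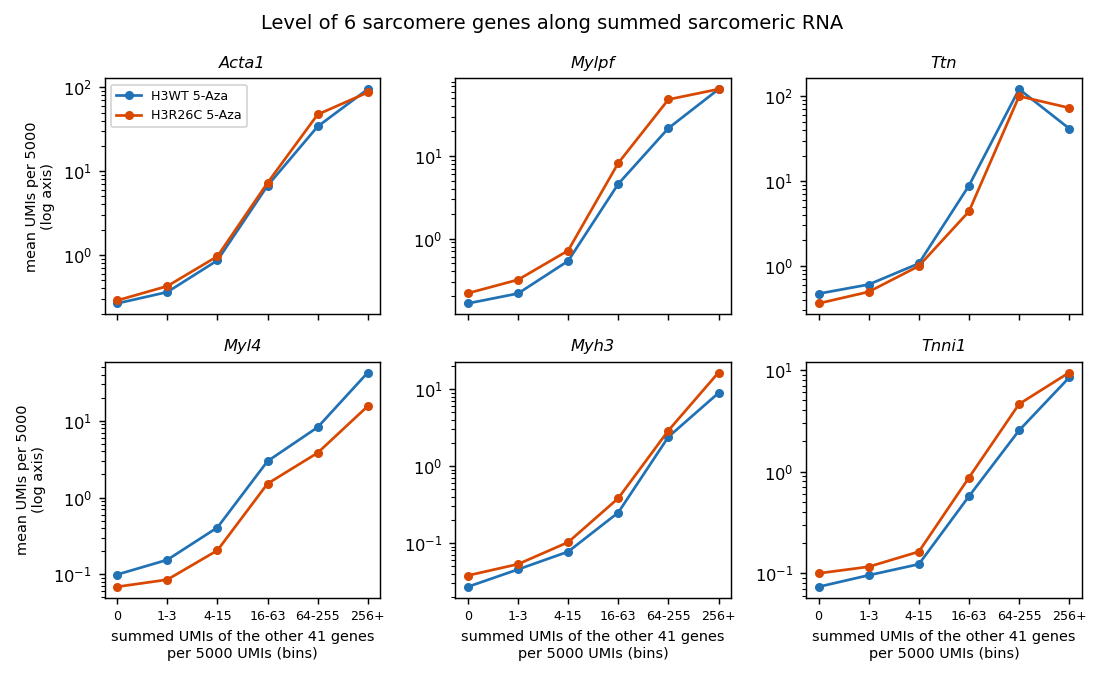
Mean UMIs per 5000 of 6 sarcomere genes (log axes) in cells grouped by the summed UMIs of the other 41 genes, for H3WT 5-Aza and H3R26C 5-Aza. Acta1, Mylpf, Myl4, Myh3 and Tnni1 increase over the bins in both libraries with H3R26C below H3WT for Myl4 in every bin, while Ttn is highest in the second bin from the top.

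The sarcomere-rich cells were of 3 kinds, which differed in which sarcomere genes they held. The kinds were set after the data were seen, from ribosomal protein genes and the nuclear RNA Malat1, which belong to none of the gene lists. Ribosomal-poor cells had under 8% of their UMIs from ribosomal protein genes, Malat1-poor cells had at least 8% but under 0.1% Malat1, and the rest are called middle. H3WT 5-Aza had 47 ribosomal-poor, 42 Malat1-poor and 76 middle cells (28.5%, 25.5% and 46.1%), and H3R26C 5-Aza had 55, 25 and 138 (25.2%, 11.5% and 63.3%). The libraries thus differed in the mix. Median UMIs were 11331, 7561.5 and 19474.5 in H3WT and 12263, 10360 and 24984.5 in H3R26C. Median Malat1 was 21.5%, 0.0166% and 0.819% of UMIs in H3WT, and mitochondrial UMIs were 6.34%, 0.580% and 2.90%. In H3R26C the Malat1 medians were 7.46%, 0.0153% and 0.613%, and the mitochondrial medians 10.4%, 0.442% and 2.86%. Titin took a median of 66.2% of the sarcomere UMIs of ribosomal-poor cells, 0.548% of Malat1-poor cells and 8.89% of middle cells in H3WT, and 59.3%, 0.297% and 5.78% in H3R26C. Against middle cells, the share of ribosomal-poor cells' sarcomere UMIs was 4.72 and 7.87 times as large for Ttn in H3WT and H3R26C and 5.43 and 5.42 times for Neb. It was 0.19 and 0.26 times for Acta1, and 0.11 and 0.12 times for Mylpf. Of 37 genes with enough UMIs, 14 lay above 1 and 18 below 1 in both libraries, and the ratio went with exonic length across genes (Spearman's rho 0.75 in H3WT and 0.77 in H3R26C, genes of 1 library sharing its cells). Malat1-poor cells went the opposite way for Ttn, at 0.06 and 0.19 times the middle share in H3WT and H3R26C. Tnnc1 was at 2.03 and 1.82 times, but Acta1 was at 1.13 and 0.957 times and Mylpf at 1.09 and 0.706 times. Across genes this ratio went down with exonic length, less so in H3R26C (Spearman's rho -0.64 in H3WT and -0.38 in H3R26C). Between 5% and 10% ribosomal protein UMIs, near the limit, lay 7 ribosomal-poor, 2 Malat1-poor and 6 middle cells in H3WT and 8, 0 and 5 in H3R26C. Among kept cells that were not sarcomere-rich, 3.65% in H3WT and 4.61% in H3R26C were under the ribosomal protein limit, and 1.80% and 2.04% under the Malat1 limit. The part of depth, Malat1 and mitochondrial share in these differences was not tested.

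**Figure D3:**
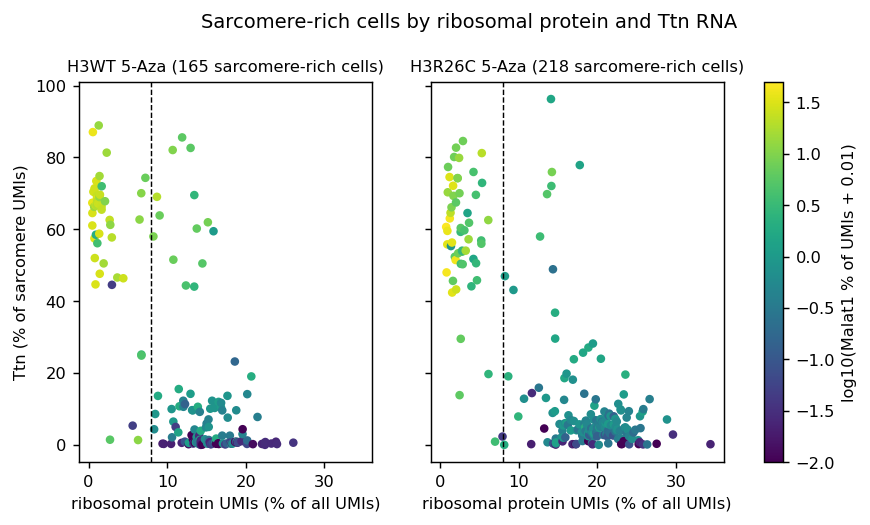
Ttn as a percent of sarcomere UMIs against ribosomal protein UMIs as a percent of all UMIs, 1 point per sarcomere-rich cell, coloured by log10 of Malat1 percent, with the 8% limit dashed. In both 5-Aza libraries most cells left of the line hold over 40% Ttn and high Malat1, and the cells with the least Malat1 lie to the right at almost no Ttn.

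Between genotypes after 5-Aza, over all kept cells, 5 of 25 sarcomere genes were higher in H3R26C and 1 was lower, where 8.16% and 8.2% of 9023 genes were. The 5 largest ratios of H3R26C to H3WT were those of Actn3 at 1.89 (1.76 to 2.02), Klhl41 at 1.75 (1.60 to 1.90), Myh3 at 1.73 (1.67 to 1.79), Mylpf at 1.7 (1.68 to 1.72) and Tnni1 at 1.58 (1.53 to 1.64). The 5 smallest were those of Myl4 at 0.435 (0.425 to 0.446), Ldb3 at 0.666 (0.607 to 0.731), Neb at 0.725 (0.704 to 0.748), Myl1 at 0.742 (0.724 to 0.761) and Mybph at 0.783 (0.745 to 0.822). With DMSO, Actn3 was also higher in H3R26C, at 2.81 CPM against 0.357 CPM in H3WT, and Myl4 also lower, at 1.53 against 2.43 CPM. Tnni1 went the other way there, at 14.4 CPM in H3R26C against 21.1 CPM in H3WT. The rest of these genes were at or under 1.09 CPM in both DMSO libraries. With every barcode counted, 0 of 27 were higher and 4 lower, where 8.15% and 7.09% of 9022 genes were. In sarcomere-rich cells, 0 of 39 genes were higher and 12 lower, where 8.79% and 18.3% of 8644 genes were, and the median log2 ratio was -0.35 against -0.13 over all genes. Among middle cells only, 2 of 39 were higher and 17 lower, where 8.13% and 23.7% of 8467 genes were, with medians of -0.41 and -0.19. Leaving out the ribosomal-poor cells alone, the first of these limits tried, gave 0 higher and 18 lower, where 8.44% and 18.8% of 8282 genes were.

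Myl4 was lower in H3R26C in each set of 5-Aza cells and barcodes compared. It stood at 5464 CPM for H3WT against 1664 CPM for H3R26C in sarcomere-rich cells, a ratio of 0.305 (0.296 to 0.313), and at 4923 CPM for H3WT against 1306 CPM for H3R26C in middle cells, a ratio of 0.265 (0.256 to 0.275). By summed RNA of the other genes, its ratio in cells outside the ribosomal-poor and Malat1-poor kinds was 0.548 (0.498 to 0.601) in the lower bin, 0.428 (0.394 to 0.464) in the upper bin and 0.224 (0.214 to 0.233) in the top bin. Per middle cell, the lower quartile, median and upper quartile of Myl4 UMIs per 5000 were 2, 8 and 24 in H3WT and 0, 2 and 8.75 in H3R26C, so the cells of both libraries overlapped. Myl4 was detected in 63 of 73 H3WT cells (86.3%, 76.2 to 93.2) and 93 of 138 H3R26C cells (67.4%, 58.9 to 75.1), against 15.4% and 9.92% of the cycling cells of the same libraries. The 5 cells with the most Myl4 held 41.5% of its UMIs in H3WT, so the mean rests on few cells. In barcodes under 5000 UMIs, Myl4 was 9.70% of sarcomere UMIs in H3WT and 5.98% in H3R26C, a ratio of 0.616 (0.601 to 0.633). With 1 to 15 UMIs of the other genes, a level read above as background, Myl4 took 58.9% of Myl1 and Myl4 in H3WT and 48.8% in H3R26C. The lower bin was close to that, at 56.6% and 49.8%. All these sets come from the same libraries and most overlap, so they are not separate support.

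Mylpf and Tnni1 were the 2 genes called higher in H3R26C middle cells, by sums over cells. Mylpf stood at 9664 CPM for H3WT against 15111 CPM for H3R26C, a ratio of 1.56 (1.53 to 1.59), and at 1.37 (1.35 to 1.39) in all sarcomere-rich cells, which is short of 1.5-fold. Its median per middle cell was 31 UMIs per 5000 in H3WT and 64.5 in H3R26C, with quartiles of 8 and 63.2 against 31.5 and 94.8. A larger median in H3R26C was not particular to Mylpf. Among genes not called, medians in H3WT and H3R26C were 42 and 60 for Acta1, 6 and 10 for Tnnt3, 3.5 and 7 for Tnni2 and 4 and 8 for Tnnc1. They were smaller in H3R26C for Myl4, Myl1 and Lmod3. Tnni1 stood at 961 CPM for H3WT against 1743 CPM for H3R26C, a ratio of 1.81 (1.71 to 1.92), and was detected in 53 of 76 H3WT and 124 of 136 H3R26C cells. Both were higher in each of the 3 bins of summed RNA from 16 UMIs up. Actn3 and Myh3, higher over all kept cells, differed by bin when the ribosomal-poor and Malat1-poor cells were left out. Actn3 was then at 2.52 (1.79 to 3.61) in the lower bin, 2.42 (2.00 to 2.96) in the upper bin and 0.899 (0.784 to 1.03) in the top bin. Myh3 was at 1.45 (1.13 to 1.86), 1.47 (1.31 to 1.64) and 0.943 (0.882 to 1.01). With those cells, the top bin was at 1.27 (1.16 to 1.39) for Actn3 and 1.5 (1.44 to 1.56) for Myh3. Summed over middle cells, titin was lower, at 6827 CPM for H3WT against 3894 CPM for H3R26C, a ratio of 0.570 (0.555 to 0.586). So were Neb at 0.528 (0.495 to 0.564), Mybph at 0.616 (0.573 to 0.663) and Myl1 at 0.630 (0.606 to 0.655). Per cell, the median of Ttn was 12.5 UMIs per 5000 in H3WT and 14 in H3R26C. Medians were 2 in both libraries for Neb and for Mybph, and 6 and 4 for Myl1. The 5 cells with the most Ttn held 36.7% of its UMIs in H3WT and 14.4% in H3R26C, so the H3WT sum rests on few cells. Middle cells with a Ttn share far above the median of their kind numbered 14 of 76 in H3WT and 10 of 138 in H3R26C. The mix within the middle kind thus differed between the libraries too, and its part in the Ttn and Neb ratios was not tested. Skeletal actin differed little in the sum, at 1.1 (1.08 to 1.12). Of the 25 named genes, 4 lay above 1 and 8 below 1 in all 3 bins without the ribosomal-poor and Malat1-poor cells. The same count was not made over all genes, whose median log2 ratio in middle cells was itself -0.19, so it is not read against a background.

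**Figure D4:**
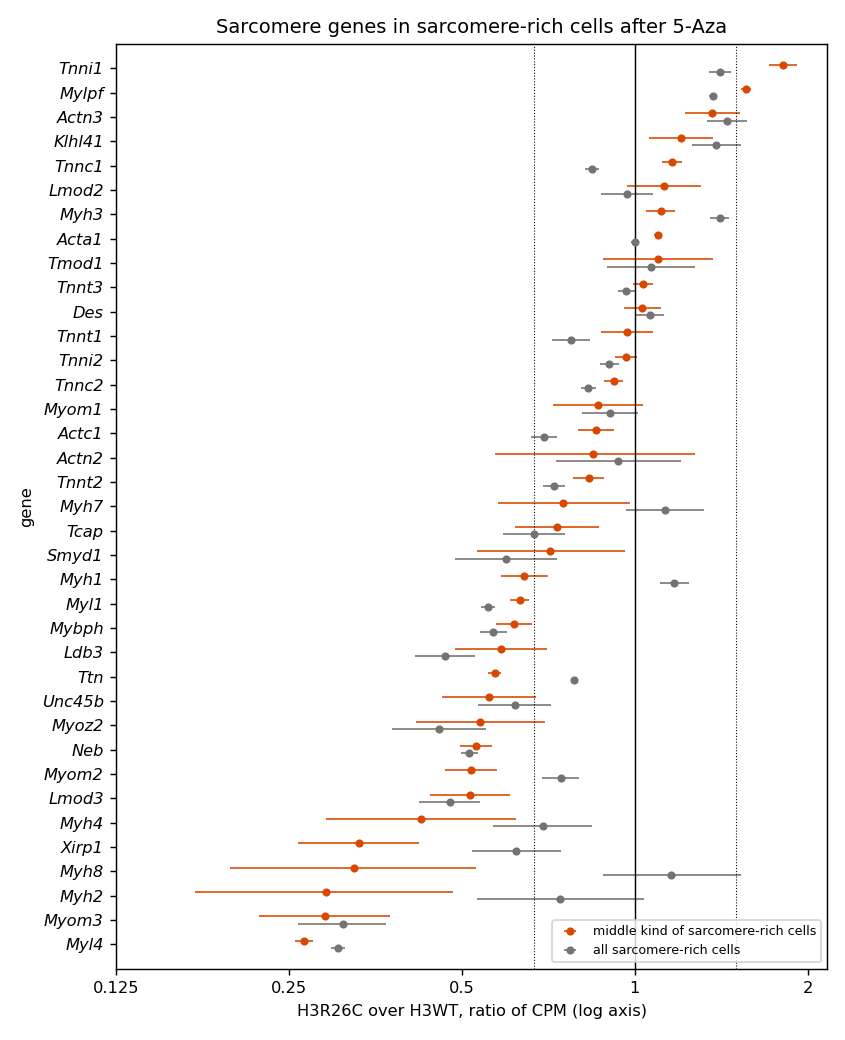
Ratio of CPM, H3R26C over H3WT after 5-Aza (log axis), in all sarcomere-rich cells (grey) and in middle cells (orange), with 95% counting intervals and dotted lines at 1.5-fold. Only sarcomere genes with enough UMIs in middle cells are drawn, which leaves out Mybpc1, called lower there. Mylpf and Tnni1 lie past the upper line in middle cells, Myl4 lies near 0.3 in both, and several myosin and M-band genes move between the 2 sets.

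Isoform use was read in middle cells with at least 64 UMIs from the other genes, and isoforms of a family were detected together in part of these cells. Any UMI counted as detection, and no doublets were removed. Cycling cells, assumed to lack these RNAs, held Myl1 in 12.5% in H3WT 5-Aza and 8.44% in H3R26C 5-Aza, and Tnni1 in 7.29% and 9.14%. The part of background RNA and of doublets in joint detection was not tested. Among sarcomeric heavy chains, embryonic Myh3 took 63.6% (61.7 to 65.5) in H3WT and 75.3% (74.1 to 76.4) in H3R26C, and adult fast Myh1 28.2% (26.5 to 30) and 19.8% (18.7 to 20.9). Slow Myh7 took 3.57% (2.89 to 4.36) and 2.85% (2.42 to 3.32). It was detected in 4 of 76 H3WT and 15 of 138 H3R26C middle cells, and 5 cells held 92.4% and 62.4% of its UMIs. Myh3 took 40.6% in the lower bin, 53.9% in the upper bin and 67.7% in the top bin in H3WT, and 57.4%, 77.6% and 74.3% in H3R26C. With 1 to 15 UMIs of the other genes, a level read above as background, it took 40.1% in H3WT and 48.4% in H3R26C. The lower bin of H3WT was thus close to background, and its share may not describe the cells themselves. The top bin held 25 H3WT and 54 H3R26C cells for this family. Myh3 and Myh1 were both detected in 24 of 74 H3WT cells (32.4%, 22.0 to 44.3) and 38 of 137 H3R26C cells (27.7%, 20.4 to 36.0). Skeletal Acta1 took 94.8% (94.5 to 95.1) and 95.5% (95.3 to 95.7) of sarcomeric actin UMIs, and none of the 66 H3WT and 125 H3R26C cells held cardiac Actc1 without Acta1. Myl4 took 62.2% (61.3 to 63.1) of Myl1 and Myl4 in H3WT and 40.9% (40.0 to 41.8) in H3R26C. Cells with both were 51 of 68 in H3WT (75%, 63 to 84.7) and 80 of 136 in H3R26C (58.8%, 50.1 to 67.2). Slow Tnni1 took 34.5% (33.1 to 36.0) of troponin I in H3WT and 49.7% (48.8 to 50.6) in H3R26C, with both troponin I forms in 47 of 76 (61.8%, 50 to 72.8) and 121 of 135 cells (89.6%, 83.2 to 94.2). The gap was in the top bin, at 29.8% against 50.8%, while both libraries were at 47.9% in the upper bin. Fast Tnnt3 took 62.0% (60.7 to 63.4) and 65.3% (64.5 to 66.2) of troponin T, cardiac Tnnt2 28.3% (27.0 to 29.5) and 24.8% (24 to 25.6), and Tnnc1 46.4% (45.2 to 47.5) and 52.3% (51.5 to 53.0) of troponin C. Mybph took 96.5% (95.3 to 97.4) and 97.6% (96.7 to 98.2) of the myosin-binding proteins C and H.

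**Figure D5:**
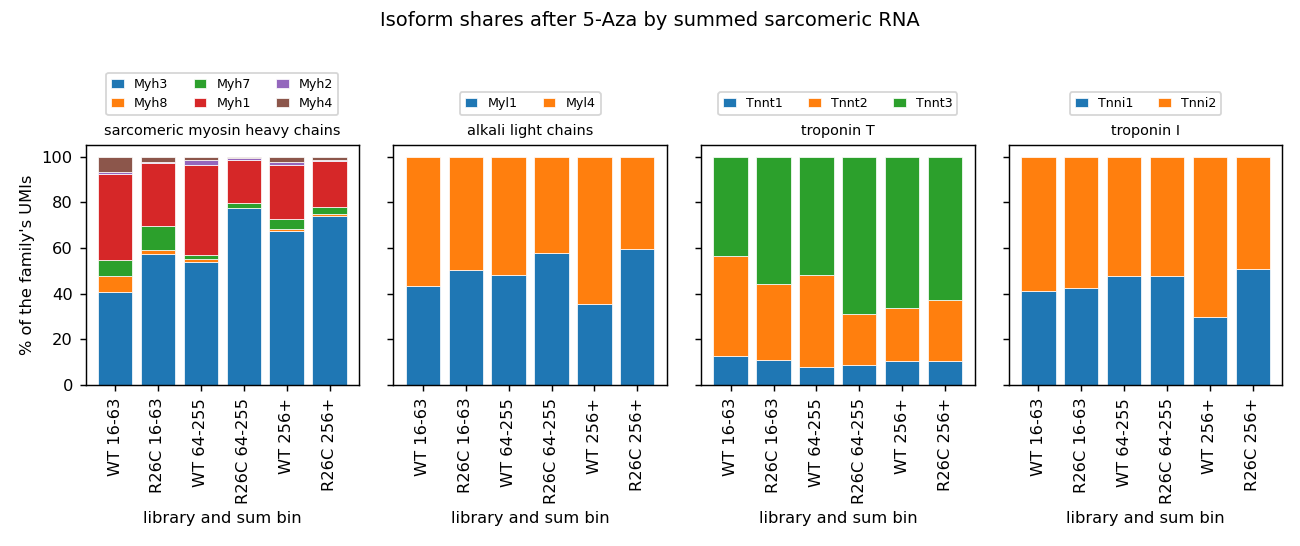
Share of each family's UMIs by isoform, as stacked bars summing to 100%, in cells outside the ribosomal-poor and Malat1-poor kinds, by library and by summed UMIs of the other genes. Myh3 is larger in H3R26C in each bin, and Myl4 is at 40.3% in the richest H3R26C bin against 64.6% in H3WT.

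How far the order in which genes appeared was shared between libraries depended on how it was measured. For 29 genes, the summed RNA of the other genes at which a gene reached 50% of its mean in the richest cells had a Spearman's rho of 0.23 between H3WT 5-Aza and H3R26C 5-Aza, and of -0.08 over 20 genes in middle cells. With the stricter cell filter it was 0.477, by the ratio of shares between bins 0.470, and without the ribosomal-poor cells alone 0.535. Ttn came first in both, at 33.0 and 50.1 UMIs per 5000, and Myh7 last, at 245 and 262. The sum for Ttn leaves Ttn out, which moves cells with mostly Ttn to lower bins. In ribosomal-poor cells Ttn took a median of 66.2% of sarcomere UMIs in H3WT and 59.3% in H3R26C. Its mean was higher in the upper bin than in the top bin. An early place of Ttn was thus partly built into the measure. In middle cells Ttn was at 121 and 71.7, and Myh1, at 113, came before it in H3WT. The place of Ttn moved with the axis, since against the sum of 12 skeletal muscle marker genes it ranked 3 in H3WT and 17 in H3R26C, and by the ratio of shares it ranked 1 and 19. The median gene reached this level at 207 UMIs in H3WT and 187 in H3R26C.

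Other genes of the myofibril were looked at in all sarcomere-rich cells. The mix of kinds among these cells differed between the libraries, and its part in the ratios below was not tested. Of 45 further myofibril genes, 34 were compared, 2 were higher and 14 lower in H3R26C, with a median log2 ratio of -0.45, where 8.79% and 18.3% of all genes were called and their median was -0.13. The most abundant, tropomyosin Tpm1, was at 5764 CPM for H3WT against 3424 CPM for H3R26C, a ratio of 0.594 (0.581 to 0.608). Tpm2, another tropomyosin, was at 2841 CPM for H3WT against 2355 CPM for H3R26C, a ratio of 0.829 (0.804 to 0.854). The chaperone Cryab was at 2604 CPM for H3WT against 1467 CPM for H3R26C, a ratio of 0.563 (0.544 to 0.583). Ankrd1, a titin-binding stretch-responsive protein, went the other way at 562 CPM for H3WT against 1462 CPM for H3R26C, a ratio of 2.60 (2.46 to 2.76). Of 17 cytoskeletal genes outside the sarcomere list, 1 was higher and 3 lower against the same shares of all genes, with a median of 0.04. The 4 most abundant were the actins Acta2 (smooth muscle), Actg1 and Actb and the intermediate filament gene Vim. They were between 2222 and 3888 CPM in both libraries. Of 12 other skeletal muscle genes, 3 were higher and 1 lower, again where 8.79% and 18.3% of all genes were, with a median of -0.05 against -0.13. Myog was at 1200.0 CPM for H3WT against 1471 CPM for H3R26C, a ratio of 1.23 (1.17 to 1.28), and the muscle creatine kinase Ckm at 1009 CPM for H3WT against 723 CPM for H3R26C, a ratio of 0.716 (0.680 to 0.755). Mymk was at 967 CPM for H3WT against 852 CPM for H3R26C, a ratio of 0.881 (0.837 to 0.927), and the calcium pump Atp2a1 at 595 CPM for H3WT against 658 CPM for H3R26C, a ratio of 1.11 (1.04 to 1.18).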

How the data were processed

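Single-cell RNA sequencing was measured in 4 libraries, 1 for each condition, which leaves comparisons of libraries with no test. The authors deposited UMI counts, whole numbers without normalization, made with Cell Ranger (6.1.0 in the file headers) on GRCm38, and the study's cell filter was applied here. No doublets were removed. Columns not mapped to a condition numbered 0. Gene lengths came from GENCODE M21.

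The genes and the lists were chosen with earlier results of these data known. Sarcomere genes with at least 10 CPM in either 5-Aza library are named with values, the others by count and range, and outside them the 4 most abundant genes of each list and Myod1, Myog, Mef2c and Mymk. Cells were thinned to 5000 UMIs without replacement, and a gene was left out of the sum against which it was placed. Ratios used a pseudocount of 1 CPM for calls, exact conditional binomial intervals for ratios, and exact Poisson or Clopper-Pearson intervals for levels and shares, with a limit of 3 counts where a count was 0. The limits on ribosomal protein and Malat1 UMIs were chosen after the data were seen. Alternatives changed the cell filter, scaling, pseudocount, low-value filter, gate, axis, thinning, lengths, level and shared barcodes. The code was tested on simulated data and used Python 3.11.15, numpy 2.4.6, scipy 1.17.1, pandas 2.3.3 and matplotlib 3.10.9.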

Additional observations from a re-analysis of the deposited data

Results flagged for a closer look

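Sarcomere RNA was found in barcodes outside the comparisons, far above its level in the DMSO libraries. Barcodes left out by the cell filter had a summed sarcomere level of 23295 CPM in H3WT 5-Aza and 20545 CPM in H3R26C 5-Aza, against 71.9 CPM in H3WT DMSO and 40.6 CPM in H3R26C DMSO. Acta1 was the most abundant sarcomere gene in them in both 5-Aza libraries. In barcodes of 500 to below 1000 UMIs, 0.303% in H3WT 5-Aza and 0.479% in H3R26C 5-Aza had no sarcomere UMI, against 95.2% and 97.1% with DMSO.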

How the results depend on the processing

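Of 108 alternatives to the main values, 64 stayed within counting error or 1.5 times, 43 moved and 1 changed sign. Of 618 for single genes and for the percent of sarcomere-rich cells, 380 stayed and 238 moved. Among gene ratios past 1.5-fold in the main values, 0 changed sign. Smaller ratios did change sign and were counted as stayed or moved. Over kept cells, the log2 ratio of Acta1 was 0.333 and reached -0.0436, and that of Tnnt3 was 0.264 and reached -0.238. The summed ratio of H3R26C to H3WT after 5-Aza was 1.14 with the stricter cell filter, 0.872 with none and 0.949 as a mean over cells. It was 1.08 without shared barcodes and 1.38 in the absence of ribosomal-poor and Malat1-poor cells. Its values below 1 count among the 43 that moved, since ratios among the main values were not labelled by direction. The 1 main value that changed sign was the rank correlation of the order. Genes higher after 5-Aza numbered 37 in H3WT with a minimum of 1 CPM and with none, and 36 and 38 in H3R26C. Over kept cells, genes higher in H3R26C numbered 0 with no cell filter, 3 as a mean over cells and 8 without both kinds. Those lower numbered 3 with the stricter filter, 4 with none, 2 as a mean over cells, 3 at 1 CPM and 3 with no minimum. The ratio of sarcomere-rich shares was 1.28 with the stricter filter, 1.28 on a muscle gene axis and 1.44 without both kinds. Genes higher in sarcomere-rich cells numbered 2 with the stricter filter, 3 as a mean over cells, 1 each at a lower and a higher gate and 2 without both kinds. Among these settings, shares over all genes are given above only for every barcode counted and for sarcomere-rich cells without both kinds. The other counts have no such share beside them and are not read as results about the sarcomere genes. Myh3 took 64.7% of heavy chain UMIs in H3WT and 72.0% in H3R26C with the stricter filter, 63.4% and 68.2% per exonic length, 63.3% and 74.4% without ribosomal-poor cells, and 63.6% and 75.3% without both kinds. Myl4 took 39.7% in H3WT and 26.6% in H3R26C per exonic length, 62.2% and 40.9% without both kinds, and 43.4% in H3R26C with the stricter filter. The shares without both kinds are those given above for middle cells, repeated here. The other settings for isoforms started from all sarcomere-rich cells. The rank correlation of the order was 0.477 with the stricter filter, 0.349 without thinning, 0.470 by share ratio, 0.1 at the 25% level, 0.535 without ribosomal-poor cells and -0.0842 without both kinds. The cause of these changes was not tested. Settings that leave out ribosomal-poor or Malat1-poor cells were chosen after seeing the data. No paired analysis was possible because the conditions hold 1 library each. With DMSO, a level under 0.0345 CPM in H3WT or 0.0357 CPM in H3R26C rests on fewer than 3 UMIs.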
